A study of Mus musculus with 6 samples.

Results

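Tight junction scaffolds and regulators were examined as 9 genes of 55487 in the count table: Tjp1, Tjp3, Cgn, Ocln, Marveld2, Marveld3, F11r, Mylk and Pard3. Each was found by an exact match of its gene symbol. The genes were chosen with earlier results of these data known. RNA-seq of colon intestinal epithelial cells (IECs) was carried out on 3 Nsd2 f/f libraries (labelled WT, genotype NSD2-FF) and 3 Nsd2 Vil-KO libraries (NSD2-FF-VILCRE). In both genotypes Nsd2, which encodes the H3K36 dimethyltransferase NSD2, carries loxP sites, and all mice received DSS (dextran sodium sulphate), a detergent-like polymer that damages the lining of the colon. In the Vil-KO mice Cre is driven by the Villin promoter, which is active in intestinal epithelium and not in the leukocytes or stroma that remain in such a preparation. The mice were littermates on a C57BL/6J background according to the methods, and the day of DSS treatment on which these cells were taken is not given in the sources used here. The labels do not say that the 3 libraries of a genotype came from separate mice, so p-values measure only the spread between these libraries.

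Tight junctions seal the space between neighbouring epithelial cells and set how readily ions and small molecules cross the colon wall. Their strands are built by claudins and by transmembrane proteins of the MARVEL family (occludin, tricellulin, MarvelD3) and the JAM family, and are tied to actin by cytoplasmic scaffolds, chiefly the zonula occludens (ZO) proteins and cingulin. Contraction of the actomyosin ring, switched on by myosin light chain kinase, loosens the seal, and the PAR polarity complex places the junction at the apical end of the lateral membrane. The comparison asks whether transcripts of these parts differ when Nsd2 is removed from the epithelium.

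For 8 of the 9 genes (all but Marveld3) RefSeq promoter windows on GRCm38.p6 were at hand, 12 windows in all, each with 250 bases before and 50 after a transcript start. Windows of 4 genes are shown because they cover the scaffold that gives the family its name (Tjp1), the 2 genes whose libraries separated by genotype (Tjp3 and Mylk) and the best known MARVEL protein (Ocln). They are read 5′ to 3′ on the strand of the gene, and capitals mark the E-box CACCTG, on either strand (CAGGTG on the other), a motif that transcription factors of the Snail and ZEB families bind in the occludin and E-cadherin promoters. The windows lie at chr7:65371195-65371494 (minus strand) for Tjp1, chr10:81291532-81291831 (minus) for Tjp3, chr13:100552669-100552968 (minus) for Ocln and chr16:34784700-34784999 (plus) for Mylk.
Tjp1: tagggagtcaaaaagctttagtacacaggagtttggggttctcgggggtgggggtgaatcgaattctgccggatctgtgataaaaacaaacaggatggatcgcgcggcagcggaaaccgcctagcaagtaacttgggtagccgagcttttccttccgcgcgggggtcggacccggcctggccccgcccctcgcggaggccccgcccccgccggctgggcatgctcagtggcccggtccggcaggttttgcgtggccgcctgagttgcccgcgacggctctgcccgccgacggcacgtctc
Tjp3: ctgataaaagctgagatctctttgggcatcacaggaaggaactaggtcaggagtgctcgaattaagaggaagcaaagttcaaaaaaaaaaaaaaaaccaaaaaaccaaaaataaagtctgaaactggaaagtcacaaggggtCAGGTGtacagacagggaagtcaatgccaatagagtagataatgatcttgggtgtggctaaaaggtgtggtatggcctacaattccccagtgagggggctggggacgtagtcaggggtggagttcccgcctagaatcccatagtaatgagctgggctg
Ocln: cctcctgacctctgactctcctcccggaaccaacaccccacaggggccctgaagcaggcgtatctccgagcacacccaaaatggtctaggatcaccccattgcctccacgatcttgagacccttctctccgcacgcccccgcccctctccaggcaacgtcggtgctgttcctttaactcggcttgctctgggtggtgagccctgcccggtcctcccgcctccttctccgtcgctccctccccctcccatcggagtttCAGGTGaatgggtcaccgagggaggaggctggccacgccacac
Mylk: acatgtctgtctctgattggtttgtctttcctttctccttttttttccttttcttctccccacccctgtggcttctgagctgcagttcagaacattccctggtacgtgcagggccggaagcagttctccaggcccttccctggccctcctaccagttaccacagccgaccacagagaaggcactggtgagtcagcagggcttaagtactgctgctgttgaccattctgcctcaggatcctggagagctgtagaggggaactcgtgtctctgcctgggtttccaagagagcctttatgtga
The E-box was present in 8 of the 12 windows, those of F11r, Tjp3, Ocln and Marveld2 and the second of Pard3, and was not found in those of Tjp1, Cgn and Mylk. Among all 32851 windows of the same length, 20.2% held it. Windows of one gene can overlap and share a match, as they do in Ocln and Marveld2, and a match is a description of letters, not a binding site. The transcript start in the Tjp1 window lies 156537 bases and that in the Mylk window 39740 bases inside the gene as GENCODE draws it, since both genes have several starts, and counts per gene sum over all of them.

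The libraries held 15439123 to 20350539 counted reads, and the 9 genes had between 255 and 9827 reads each in a library, so counting error was small beside the spread between libraries. Nsd2 was at 47.9, 51.2 and 24.6 CPM (reads scaled to library size with TMM factors) in Nsd2 f/f replicates 1, 2 and 3, and at 24.2, 10.4 and 20.8 CPM in Nsd2 Vil-KO. It was lower in each Vil-KO library than in each f/f library, with f/f replicate 3 close to the highest of Vil-KO, by a log2 fold change of -1.16 (SE 0.40, edgeR unadjusted p = 0.0234, adjusted p = 0.999). It missed the screening criterion given below without f/f replicate 1 (-1.03) or f/f replicate 2 (-0.96). Nsd2 f/f replicate 3 and Vil-KO replicate 2 stood apart from the other 4 libraries. They held 4296 and 3684 Xist reads, against 1 to 5 elsewhere, had the highest summed epithelial markers (26605 and 25825 CPM, against 16311 to 19179), and 19.6% of the reads of the former were mitochondrial, against 5.51% to 9.13% in the others. In the latter, 12 leukocyte markers summed to 2352 CPM, against 220 to 877 in the others. The epithelial markers did not all follow their sum. In Vil-KO replicate 2, Epcam, Krt18, Cdx2 and Lgals4 were highest of the 6 libraries, and Cdh1, Krt20 and Vil1 lowest. The 12 epithelial markers, Epcam and Cdh1 among them, were detected in every library, so the labelled cell type was present. In such bulk samples fewer cells of a type and less RNA per cell cannot be told apart.

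All 9 genes were expressed in every library and none was called different between the genotypes. Of the 9, 0 passed the screening criterion (a fold change above 1.2 with an unadjusted p below 0.05), which 2.96% of the 14650 tested genes passed, 221 higher and 213 lower in Nsd2 Vil-KO. At an adjusted p below 0.05, 0 of the 9 and 0% of all tested genes were called by edgeR, while 434 genes had an unadjusted p below 0.05. DESeq2 called 4 genes at that threshold, none of them among the 9. DESeq2 also passed 0 of the 9 at the criterion. Fitted log2 fold changes were positive for 5 and negative for 4 of the genes, from -0.33 for Mylk to 0.20 for Cgn, with a median of 0.011, beside 0.0026 over all tested genes. Each of the 9 intervals included 0.

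The intervals also limit how large an undetected change could be. In 9 of 9 genes the 95% interval of the fold change lay within a 2-fold change in either direction, which was so for 45.9% of tested genes. For 4 of the 9 it lay within 1.5-fold (Tjp1, Ocln, Marveld2 and Marveld3), and for 0 within 1.2-fold, so changes of the size of the screening criterion could not be told from none. The SD of log2 CPM among libraries of one genotype was 0.049 to 0.34 for these genes, with a median of 0.17, beside a median of 0.31 over the 9237 tested genes that averaged 10 CPM or more. All 9 were below the median of all tested genes, 0.41.

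**Figure D1:**
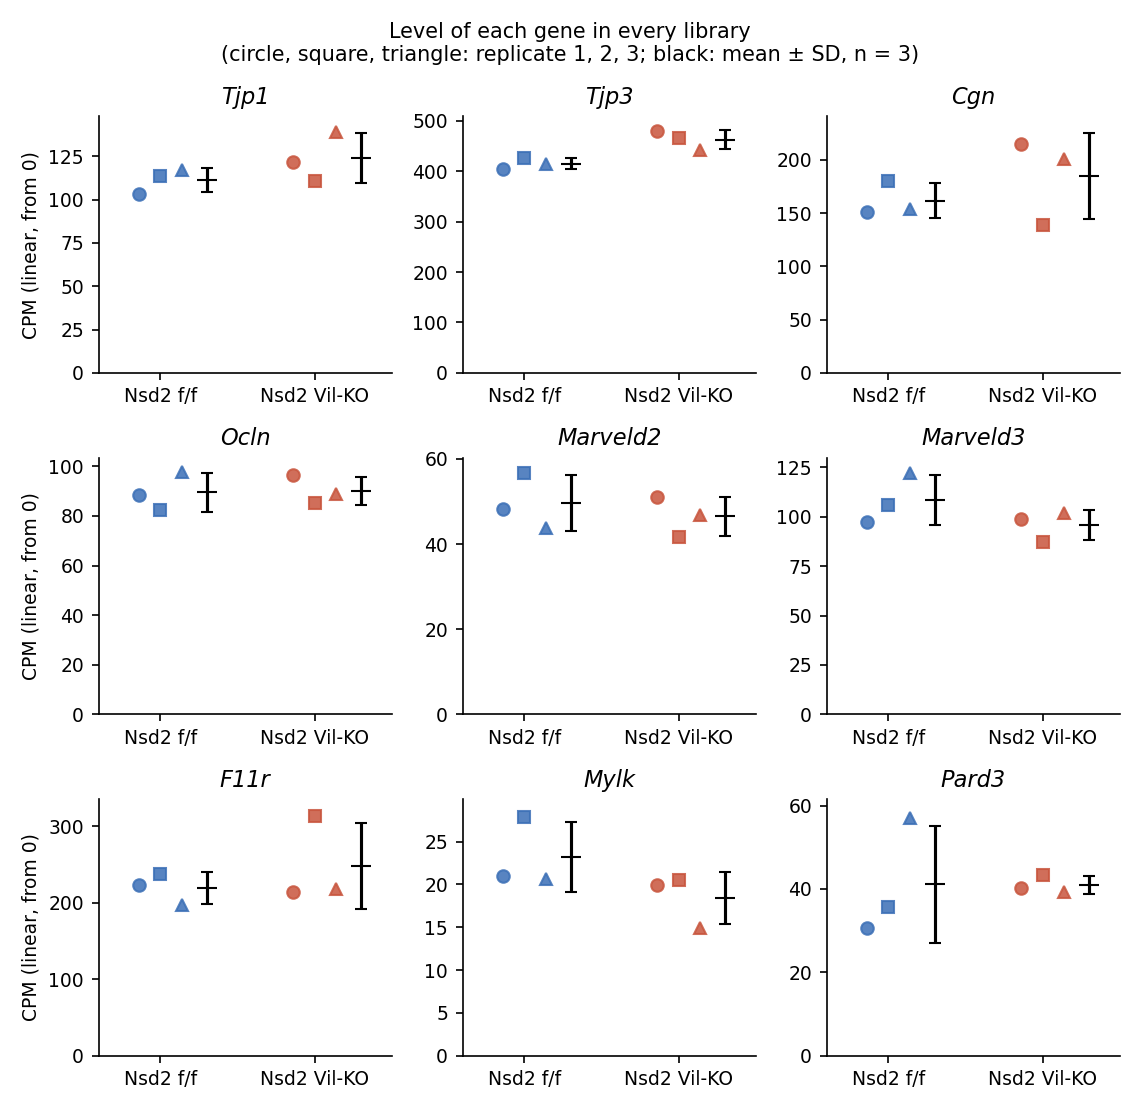
Level of each gene in CPM on a linear axis from 0, with circles, squares and triangles for replicates 1, 2 and 3 of each genotype and the black mark for the mean ± SD (n = 3). The genotypes separate for Tjp3 (404.8 to 426.2 CPM in Nsd2 f/f, 442.7 to 479.1 in Vil-KO) and, narrowly, for Mylk, and overlap for the other 7 genes.

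The scaffolds came first. Tjp1, which encodes ZO-1, lies at chr7:65296165-65527781 on the minus strand (GRCm38). It was measured at 103, 114 and 117 CPM in Nsd2 f/f replicates 1 to 3 and at 122, 111 and 139 CPM in Vil-KO. Vil-KO replicate 2 lay among the f/f libraries and the other 2 Vil-KO libraries lay above them. The means were 111 ± 7.15 and 124 ± 14.3 CPM (SD, n = 3 each), a log2 fold change of 0.16 (SE 0.17, 0.845- to 1.47-fold, edgeR unadjusted p = 0.386). An exact two-sided permutation test over the 20 assignments of libraries, which cannot give less than 0.1, gave p = 0.3. Among the 4 libraries without Xist the difference was 0.28 with an unadjusted edgeR p of 0.0480. In that fit 1636 of 15030 tested genes passed the screening criterion. Without Vil-KO replicate 3 the difference was 0.066.

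Tjp3 encodes ZO-3, a ZO protein restricted to epithelia, and lies at chr10:81273207-81291581 (minus strand), where 40 of its exon bases overlap Apba3 on the other strand. Its levels were 404.8, 426.2 and 414.8 CPM in Nsd2 f/f and 479.1, 465.9 and 442.7 CPM in Vil-KO. Each Vil-KO library lay above each f/f library, as it did for 5.21% of tested genes. The means, 415 ± 10.7 and 463 ± 18.4 CPM (SD, n = 3 each), differed by a log2 fold change of 0.16 (SE 0.19, 0.820- to 1.51-fold, edgeR unadjusted p = 0.432). The exact permutation p was 0.1, the smallest that 3 against 3 libraries allow. Within a genotype the libraries lay closer together for Tjp3 than for most genes, with an SD of log2 CPM at the 0.253 percentile of tested genes. The fitted value stayed between 0.13 and 0.21 in each of 17 alternatives, with unadjusted p-values from 0.200 to 0.609.

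Cgn encodes cingulin, which links ZO-1 to actomyosin. The gene (chr3:94760069-94786492, minus strand) was at 151, 180 and 153 CPM in Nsd2 f/f and at 214, 139 and 201 CPM in Vil-KO. Vil-KO replicate 2 was the lowest of the 6 libraries and the other 2 Vil-KO libraries the highest, so the genotypes overlapped. The means were 161 ± 16.3 and 185 ± 40.2 CPM (SD, n = 3 each), with a log2 fold change of 0.20 (SE 0.22, 0.795- to 1.65-fold, edgeR unadjusted p = 0.411) and an exact permutation p of 0.4. In the 4 libraries without Xist, where 1636 of 15030 tested genes passed the criterion, the difference was 0.34 (edgeR unadjusted p = 0.0315). With Xist presence as a covariate it was 0.17 (edgeR unadjusted p = 0.314).

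The MARVEL proteins followed. Ocln, which encodes occludin, lies at chr13:100496507-100552718 on the minus strand. It was at 88.3, 82.4 and 97.8 CPM in Nsd2 f/f and at 96.4, 85.3 and 88.7 CPM in Vil-KO. All 3 Vil-KO values fell inside the range of the f/f libraries. The means were 89.5 ± 7.73 and 90.2 ± 5.69 CPM (SD, n = 3 each), a log2 fold change of 0.011 (SE 0.16, 0.779- to 1.30-fold, edgeR unadjusted p = 0.946). Of the 9 genes Ocln and Pard3 had the smallest fitted differences, and that of Ocln turned negative (-0.041) without f/f replicate 2.

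Marveld2 encodes tricellulin, which seals the points where 3 cells meet. It lies 43238 bases from Ocln on the same strand (chr13:100595957-100616971) with no protein-coding gene between them. Its levels were 48.2, 56.7 and 43.7 CPM in Nsd2 f/f and 50.9, 41.7 and 46.9 CPM in Vil-KO. The highest library was f/f and the lowest Vil-KO, with the other 4 interleaved. The log2 fold change was -0.091 (SE 0.18, 0.704- to 1.25-fold, edgeR unadjusted p = 0.621) and turned to 0.021 without f/f replicate 2. Although Ocln and Marveld2 are neighbours, their order across libraries differed: f/f replicate 3 was the highest library for Ocln and the second lowest for Marveld2, and f/f replicate 2 the lowest for Ocln and the highest for Marveld2.

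Marveld3 (chr8:109947914-109962203, minus strand) encodes the third MARVEL protein of the junction. It was at 97.2, 106 and 122 CPM in Nsd2 f/f and at 98.8, 87.3 and 102 CPM in Vil-KO. The 2 highest libraries were f/f and the lowest was Vil-KO replicate 2. The means were 108 ± 12.6 and 96.0 ± 7.66 CPM (SD, n = 3 each), a log2 fold change of -0.18 (SE 0.17, 0.671- to 1.17-fold, edgeR unadjusted p = 0.334). In the 4 libraries without Xist the difference was -0.0089.

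F11r encodes JAM-A, an immunoglobulin-like adhesion protein of the junction that leukocytes and platelets also carry. The gene (chr1:171437535-171464603, plus strand) was at 224, 238 and 197 CPM in Nsd2 f/f and at 214, 314 and 218 CPM in Vil-KO. Vil-KO replicate 2 stood well above the other 5 libraries, which overlapped. The means were 219 ± 21.0 and 249 ± 56.2 CPM (SD, n = 3 each), a log2 fold change of 0.18 (SE 0.23, 0.784- to 1.64-fold, edgeR unadjusted p = 0.448). Without that library the value was -0.019. Vil-KO replicate 2 was also the library in which the leukocyte markers summed to 2352 CPM, and the part of those cells in the F11r level was not tested.

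Mylk encodes myosin light chain kinase, as a long form made in epithelium and a short form abundant in smooth muscle, which counts per gene do not separate. It lies at chr16:34745210-35002420 (plus strand), and 548 of its exon bases overlap the antisense gene E130310I04Rik and 224 Gm21691. Whether the counting used strand is not given in the sources used here. Mylk was at 21.0, 27.9 and 20.6 CPM in Nsd2 f/f and at 19.9, 20.5 and 14.9 CPM in Vil-KO. Each Vil-KO library lay below each f/f library, as for 4.7% of tested genes, but Vil-KO replicate 2 and f/f replicate 3 nearly touched. The means, 23.2 ± 4.10 and 18.4 ± 3.06 CPM (SD, n = 3 each), differed by a log2 fold change of -0.33 (SE 0.23, 0.545- to 1.16-fold, edgeR unadjusted p = 0.197, exact permutation p = 0.1). This was the largest fitted difference of the 9 genes. It was -0.17 without f/f replicate 2, the library with the highest level. In limma-voom with quality weights, the alternative under which Mylk passed the criterion, it was -0.51 (unadjusted p = 0.0266). In that alternative 1421 of 14650 tested genes passed.

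Smooth muscle was scarce in these preparations. The 10 smooth muscle markers summed to 23.7, 35.1 and 16.1 CPM in Nsd2 f/f and to 30.9, 14.3 and 28.9 CPM in Vil-KO, with overlapping genotypes. Myh11, the smooth muscle myosin, was at 0.055 to 3.84 CPM, and Lmod1 and Hhip were at 0 in some libraries. The library with the most Mylk, f/f replicate 2, also had the highest smooth muscle sum. Vil-KO replicate 3, with the least Mylk, had the third highest sum. Smtn was the largest term of the sum in every library, at 20.5 of 28.9 CPM in Vil-KO replicate 3. It was the 1 tested smooth muscle marker fitted higher in Vil-KO. The other 7 were fitted lower, with a median log2 fold change of -0.54 over the 8. The 8 fibroblast markers summed to 275, 68.0 and 27.5 CPM in f/f and to 81.6, 6.66 and 23.7 CPM in Vil-KO. The part of either cell type in the Mylk level was not tested.

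Pard3 encodes PAR-3, the polarity scaffold that binds JAM-A. The gene (chr8:127063893-127612286, plus strand) was at 30.6, 35.7 and 57.1 CPM in Nsd2 f/f and at 40.2, 43.3 and 39.2 CPM in Vil-KO. The f/f libraries spanned the 2 lowest values and the highest, and the 3 Vil-KO libraries lay between them. The means were nearly equal, 41.1 ± 14.1 and 40.9 ± 2.16 CPM (SD, n = 3 each), with a log2 fold change of -0.007 (SE 0.26, 0.653- to 1.52-fold, edgeR unadjusted p = 0.979). F/f replicate 3, the library rich in mitochondrial reads, held the highest value, and without it the difference was 0.31 (edgeR unadjusted p = 0.133).

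**Figure D2:**
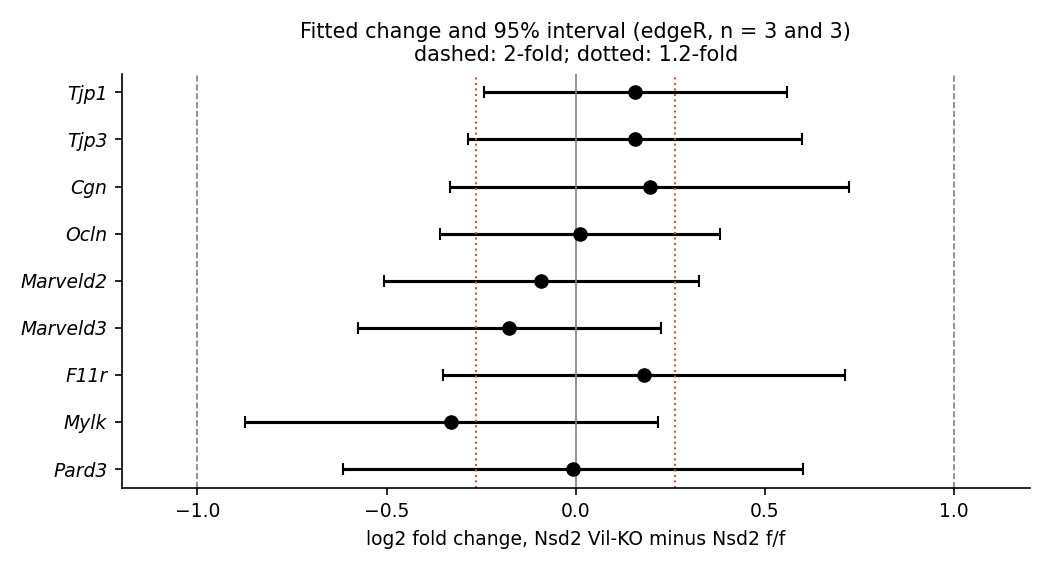
Fitted log2 fold change of each gene (Nsd2 Vil-KO minus Nsd2 f/f; points) with its 95% interval (bars), from edgeR with 3 libraries of each genotype. All 9 intervals cross 0 and stay inside the dashed lines of a 2-fold change, and each crosses at least one dotted line of a 1.2-fold change.

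Levels of different genes were compared per length, as CPM per kilobase of annotated exon, in the order of the 6-library means. Tjp3 was highest at 118 ± 7.86 (SD, n = 6), followed by F11r at 87.9 ± 15.5, Marveld3 at 31.1 ± 3.52, Cgn at 28.7 ± 5.03, Ocln at 21.3 ± 1.44, Tjp1 at 15.1 ± 1.57, Marveld2 at 14.2 ± 1.58, Pard3 at 2.83 ± 0.621 and Mylk at 1.85 ± 0.368. Tjp3 was above F11r in 6 of 6 libraries. The neighbours Marveld3 and Cgn, and likewise Tjp1 and Marveld2, kept that order in 4 of 6 libraries each and could not be ranked beyond their spread. The long annotated exons of Pard3 (14506 bases over 28 transcripts) and Mylk (11263 bases over 8) lower their values on this scale where most reads come from shorter forms.

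The ratio of Tjp3 to Tjp1 per length, which no scaling between libraries can move, was 8.25, 7.89 and 7.47 in Nsd2 f/f and 8.26, 8.84 and 6.69 in Vil-KO. The genotypes overlapped, so this ratio of the 2 ZO transcripts did not separate them. Marveld2 stood at 0.682, 0.858 and 0.558 of the Ocln level in f/f and at 0.660, 0.610 and 0.660 in Vil-KO, again with overlap. Marveld3 stood at 1.41, 1.66 and 1.60 of Ocln in f/f and at 1.32, 1.32 and 1.48 in Vil-KO, with f/f replicate 1 inside the Vil-KO range.

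**Figure D3:**
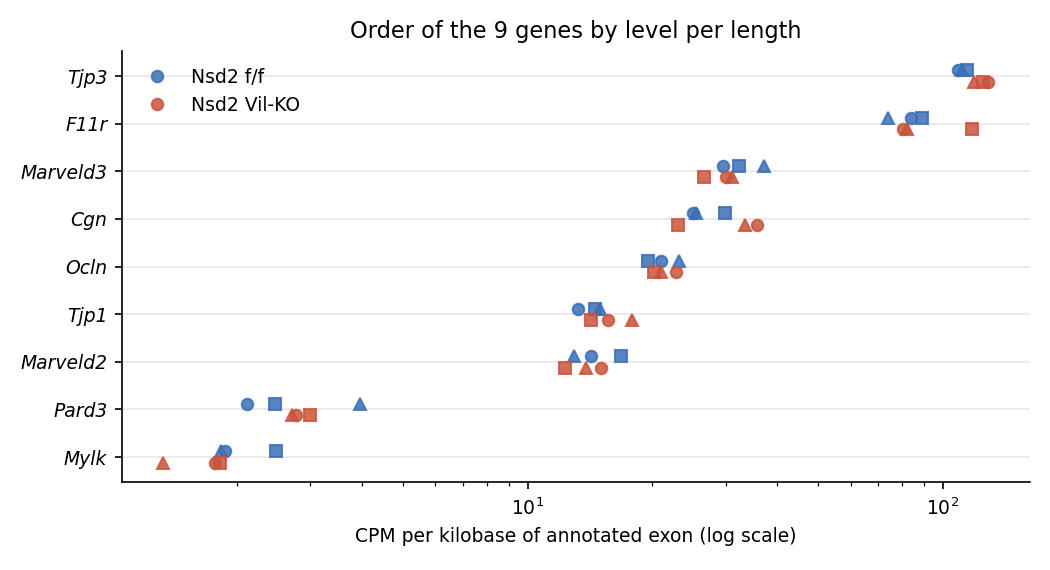
CPM per kilobase of annotated exon on a log axis for each gene, ordered by the mean of 6 libraries, with Nsd2 f/f in blue and Vil-KO in red and replicates 1, 2 and 3 as circles, squares and triangles. Levels run from 118 for Tjp3 to 1.85 for Mylk on average, and the genotypes share one order apart from close neighbours.

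Highest and lowest values were spread over the libraries. The highest of the 6 values fell in Nsd2 f/f for 5 genes (f/f replicate 2 for 2, f/f replicate 3 for 3) and in Vil-KO for 4. The lowest fell in f/f for 5 genes, f/f replicate 1 for 3 of them, and in Vil-KO for 4, replicate 2 for 3 of them. Summed over the 9 genes, the level was 1167, 1267 and 1223 CPM in f/f and 1336, 1308 and 1293 CPM in Vil-KO, a sum in which Tjp3 is the largest term in every library. The sums did not overlap, while the median over the genes of each library's deviation from the gene's mean did, at -0.066, 0.041 and -0.003 in f/f and 0.059, -0.071 and -0.015 in Vil-KO on the log2 scale.

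The pattern of Tjp1 across the 6 libraries was closest to those of Tfip11 (a splicing factor), Osbp (an oxysterol-binding protein) and Gmppa (a subunit in GDP-mannose synthesis), with root mean square differences of centred log2 CPM of 0.028, 0.035 and 0.037. The median difference over 9228 eligible genes was 0.31. Tfip11 ran from 40.9 CPM in f/f replicate 1 to 55.8 CPM in Vil-KO replicate 3, the same libraries in which Tjp1 was lowest and highest. Among the other junction genes examined Tjp3 was nearest to Tjp1, at 0.13, and Mylk farthest, at 0.36. All points share the libraries and their scaling.

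Other tight junction genes were taken from 5 lists of 71 genes, of which 70 were in the table and 59 were tested. Of these, 3 passed the screening criterion, all higher in Nsd2 Vil-KO, beside 434 of the 14650 tested genes (2.96%), and 0 at an adjusted p below 0.05. The median log2 fold change of the 59 was 0.087. The count fell to 1 without f/f replicate 1, f/f replicate 3 or Vil-KO replicate 1 and to 0 without f/f replicate 2, was 12 of 60 tested in the 4 libraries without Xist (where 1636 of 15030 tested genes passed), and was 1 when libraries were scaled to the epithelial markers.

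Plaque scaffolds (13 tested) and transmembrane partners (6 tested) had 0 genes past the criterion. Among the transmembrane partners the smallest p was that of Ildr1, an angulin that recruits tricellulin to tricellular contacts. Ildr1 was at 224, 258 and 317 CPM in f/f and at 289, 405 and 349 CPM in Vil-KO, overlapping, with a log2 fold change of 0.38 (SE 0.23, edgeR unadjusted p = 0.143).

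The polarity list, with the PAR and Scribble complexes that work with Pard3, had 1 of 13 tested genes past the criterion. Pard6b, the PAR-6 adaptor of atypical protein kinase C, was at 34.8, 29.8 and 19.4 CPM in Nsd2 f/f and at 41.4, 73.1 and 34.5 CPM in Vil-KO. Vil-KO replicate 3 fell within the f/f range, and the log2 fold change was 0.83 (SE 0.35, edgeR unadjusted p = 0.04995, adjusted p = 0.999). Without Vil-KO replicate 2, the highest library, it was 0.44, and it missed the criterion there and without f/f replicate 2, f/f replicate 3 or Vil-KO replicate 1. In 6 of the 13 genes each Vil-KO library lay above each f/f library (Pard3b, Pard6g, Prkci, Llgl1, Llgl2 and Scrib, named after their values were seen), and in 1, Pard6a, below. Vil-KO lay above f/f in this way in 5.21% of tested genes, and either pattern was found in 9.9%. Pard6g rested on few reads, at 0.414 to 0.646 CPM in f/f and 0.664 to 1.83 CPM in Vil-KO. Of the 6 genes, Scrib ran from 98.3 to 112 CPM in f/f and from 116 to 127 CPM in Vil-KO. Prkci, which encodes the atypical kinase PKC-iota, ran from 64.7 to 78.7 CPM and from 88.0 to 101 CPM.

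Actomyosin control had 1 of 17 tested genes past the criterion, Rock2, a kinase that phosphorylates myosin light chain and its phosphatase. Rock2 was at 116, 108 and 98.9 CPM in Nsd2 f/f and at 143, 151 and 143 CPM in Vil-KO. The genotypes did not overlap, and the log2 fold change was 0.44 (SE 0.16, edgeR unadjusted p = 0.0282, adjusted p = 0.999). With one library left out it ran from 0.39 to 0.50 and passed only without Vil-KO replicate 2. Of 10 tested claudins 1 passed, Cldn8, which tightens the junction of the distal colon to sodium. It was at 152, 120 and 186 CPM in f/f and at 179, 299 and 232 CPM in Vil-KO, with one Vil-KO library inside the f/f range and a log2 fold change of 0.64 (SE 0.27, edgeR unadjusted p = 0.0487, adjusted p = 0.999). Cldn8 ran from 0.43 to 0.80 with one library left out, and missed the criterion without f/f replicate 1 or 2 or Vil-KO replicate 2 or 3.

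**Figure D4:**
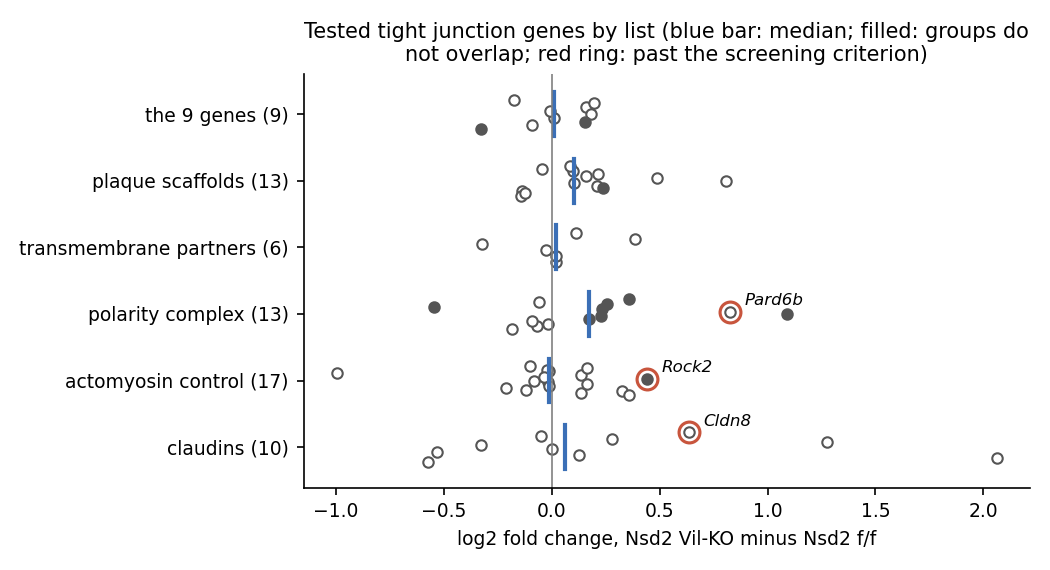
Log2 fold change (Nsd2 Vil-KO minus Nsd2 f/f) of each tested gene, for the 9 genes and 5 further lists (number tested in brackets). Points are filled where the genotypes do not overlap and ringed in red where a gene passed the screening criterion (Pard6b, Rock2 and Cldn8), and blue bars are list medians, which lie at 0.011 for the 9 genes and at 0.17 for the polarity list.

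How far each fitted difference depended on model and libraries is drawn for the 9 genes. Tjp1, Tjp3 and Cgn were positive and Marveld3 and Mylk negative in each of 17 alternatives, whereas Ocln, Marveld2, F11r and Pard3 changed sign in at least 1. The adjusted p-values of the 9 genes reached 0.422 at the lowest in any alternative.

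**Figure D5:**
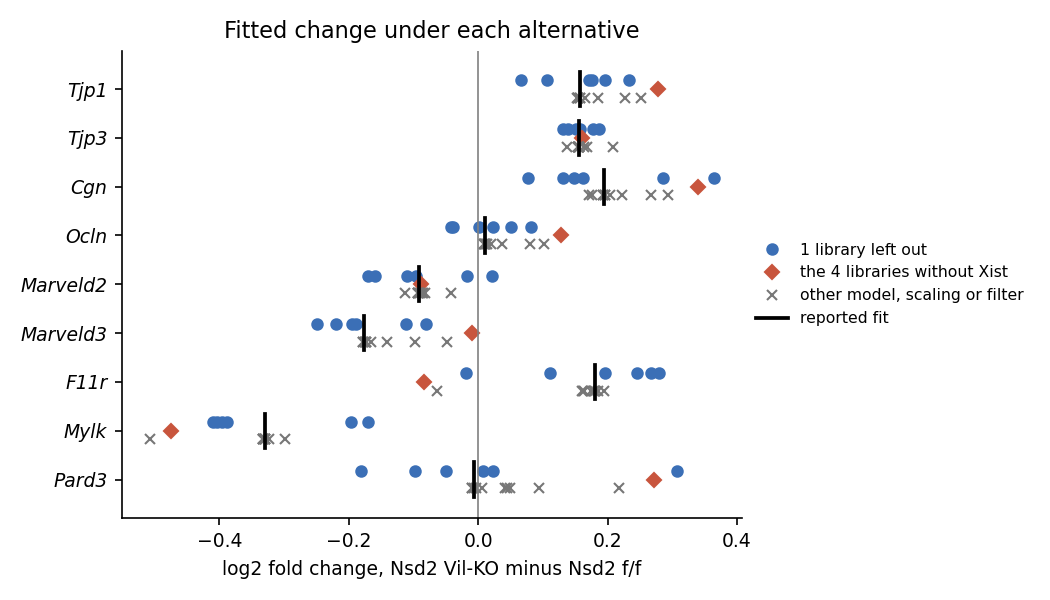
Log2 fold change (Nsd2 Vil-KO minus Nsd2 f/f) of each gene in the reported fit (black bars), with 1 library left out (blue circles), in the 4 libraries without Xist (red diamonds) and under other models, scalings and filters (grey crosses). Tjp3 is the most tightly grouped, from 0.13 to 0.21, and Pard3 spreads on both sides of 0, from -0.18 to 0.31.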

How the data were processed

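The authors deposited 1 table of raw counts of reads per Ensembl gene for all 6 libraries, with no normalisation. According to the methods they selected polyA RNA, trimmed paired reads and aligned them to GRCm38 with HISAT2, which the submitters' processing notes also name, with mm10. The counting program, its use of strand and the annotation are not given in the sources used here, and labels and methods name different library kits. The paper's own FPKM values were not used. Genotypes were compared with edgeR 4.0.16 under R 4.3.3 (TMM, filterByExpr, robust quasi-likelihood test of genotype, Benjamini-Hochberg adjustment over 14650 genes). Intervals were built from the SE and the t distribution of the fit. The test was tried on simulated counts. CPM per kilobase used union exons of GENCODE vM21, which held 99.5% of the gene identifiers. Positions are GENCODE on GRCm38 and promoter windows RefSeq on GRCm38.p6. Genes were named by a written rule: Nsd2, the 9 genes, in 5 lists each gene past the criterion and that with the smallest p, and the 3 genes most like Tjp1. One gene that the rule names is not reported here. The genes and lists were chosen with earlier results of these data known. Alternatives used DESeq2 1.42.0, limma 3.58.1, other scalings and filters, a replicate block, Xist presence and each library left out, and were extended to other named genes after seeing the data. Figures were drawn with matplotlib 3.10.9.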

Additional observations from a re-analysis of the deposited data

How the results depend on the processing

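In 19 alternatives the 9 genes had 0 past an adjusted p of 0.05. The number past the screening criterion was 0 except in limma-voom with quality weights (1, Mylk) and in the 4 libraries without Xist (2, Tjp1 at 0.28 and Cgn at 0.34). Over all tested genes, 1421 of 14650 passed in limma-voom and 1636 of 15030 in the 4 libraries. The median log2 fold change of the 9 genes, 0.011, was 0.094 with library size only, 0.10 in limma-voom and 0.13 in the 4 libraries. It was -0.017 to 0.11 with each library left out (highest without f/f replicate 3). Pard3 turned positive with library size only (0.094), epithelial scaling (0.049), no filter (0.0054), limma-voom (0.22), the replicate block (0.045), Xist as a covariate (0.041) and the 4 libraries (0.27). F11r turned negative in limma-voom (-0.064) and in the 4 libraries (-0.083). With each library left out Pard3 ran from -0.18 to 0.31, F11r from -0.019 to 0.28, Ocln from -0.041 to 0.082 and Marveld2 from -0.17 to 0.021. Nsd2 missed the criterion with library size only (-1.12) and without f/f replicate 1 (-1.03) or 2 (-0.96), in a range of -1.42 to -0.87.

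Other tight junction genes past the criterion, 3 in the reported fit, numbered 1 under epithelial scaling, 9 in limma-voom, 1 under the replicate block, 5 with Xist as a covariate, 12 in the 4 libraries, 0 above a 2-fold change, and 0 to 4 with each library left out. For all genes, 434 in the reported fit, the counts were 684 with no filter, 1421 in limma-voom, 267 under the replicate block, 1082 with Xist as a covariate, 1636 in the 4 libraries, 237 above a 2-fold change, and 266 (without f/f replicate 2) to 719 (without Vil-KO replicate 2). The cause was not tested. With the 2 Xist libraries left out, each genotype kept 2 libraries. The deviations of same-numbered libraries from their genotype means had correlations of 0.32, -0.35 and -0.11. With 3 libraries a genotype these values cannot show whether the numbers mark pairs. Whether a call lost under the block is a weaker effect cannot be told. The alternatives moved the median of all genes by at most 0.053. With 3 libraries a genotype, a change smaller than the distance from a fitted value to the end of its interval could not be told from 0.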
